A study of Homo sapiens with 2 samples.

Results

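The genes described here are 10 cyclin genes, CCND1, CCND2, CCND3, CCNE1, CCNE2, CCNA2, CCNB1, CCNB2, CCNG1 and CCNG2, among 19775 genes annotated on the arrays. They were taken as every probe set whose only annotated gene symbol is one of these, which gave 25 of 54675 probe sets, and no probe set shared between several genes included any of them. RNA came from Eol1 (EOL-1), an established human line of eosinophilic leukaemia whose growth is driven by a fusion kinase, FIP1L1-PDGFRA. One group was a culture given 100 nM Glivec (imatinib, a small molecule that blocks the PDGF receptor kinases as well as KIT and ABL) for 4 h, and the other was a culture left untreated; both grew in the same serum-containing medium and were washed before extraction. Each group had 1 array, so no value has a replicate error, no test between groups was possible and no p-value is given.

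Cyclins are the regulatory subunits that switch on cyclin-dependent kinases (CDKs). D-type cyclins pair with CDK4 and CDK6 early in G1, where growth factor signals raise them, and E-type cyclins pair with CDK2 as cells enter S phase. Cyclin A2 acts with CDK2 and CDK1 through S and G2, and cyclins B1 and B2 drive CDK1 into mitosis. Cyclins G1 and G2 stand apart: cyclin G1 is a p53 target that binds a phosphatase, and cyclin G2 accumulates in cells that leave the cycle, where FOXO factors are known to activate its gene.

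The values are MAS5 signals, which are hybridisation intensities on a linear scale, and every ratio is Glivec over untreated. Signals below 13.7, the median of all non-control signals, were raised to that floor before log2 was taken. A gene is given by its brightest probe set and counts as measured with an array above the floor. The Glivec array was higher by at least 2-fold at 398 of the 12705 measured genes (3.13%) and lower by as much at 334 (2.63%). The higher genes made up 54.4% of these differences, against 42.2% with quantile normalization, 37.8% with median centring, 34.3% after loess and 1.7% with scaling to the hybridisation spike-ins. Those 18 spike-in probe sets were brighter on the Glivec array by a median log2 ratio of 0.74, and using them for scaling took the median over measured genes from 0.10 to -0.59, so each ratio is a change against most other genes. The part of this offset in the cyclin ratios was not tested beyond the recalculations given beside them. The 3' over 5' signal ratio was 1.04 with Glivec and 0.925 without for GAPDH. Of 8 annotated eosinophil markers 6 were measured: the granule protein genes PRG2 (6302 with Glivec, 4744 without) and RNASE2 (2872 and 2146) were bright, the transcription factor genes GATA2 (94.4 and 208, -1.14 on the log2 scale, with other probe sets at -0.86 and 0.20) and CEBPE (126 and 103) exceeded the floor on each array, EPX and CLC did so on 1 array each, and the receptor genes IL5RA and SIGLEC8 were below it on both. Of 10 annotated markers of T, B, erythroid, epithelial and liver cells, CD3E, CD79A, HBB, KRT8 and KRT18 had an array above the floor, with no signal over 94.9, and the other 5 were below it on both arrays.

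All 4 measured D and E cyclin genes had lower signals on the Glivec array, under every scaling tried. Median centring and spike-in scaling lower all ratios by a near-uniform amount, so they could not turn a ratio below 0. The A and B cyclins had log2 ratios between -0.09 and 0.47. Both G cyclins had higher signals, CCNG2 under every scaling, whereas CCNG1, at 0.54 close to CCNB2 at 0.47, turned with spike-in scaling as CCNB2 did. The spike-in shift of 0.74 is larger than these 2 ratios and smaller than that of CCNG2, so these outcomes were fixed by size. Differences between the classes were not tested. Of 9 measured cyclin genes, 1 was at least 2-fold higher (CCNG2) and 1 at least 2-fold lower (CCND3), beside 3.13% and 2.63% of all measured genes. Their median log2 ratio was -0.09, beside 0.10 over all measured genes, and 7 of the 9 lay between the 5th and 95th percentile of all measured genes, -0.77 and 0.87, with CCND3 and CCNG2 outside. Ratios were above 0 for 4 cyclin genes and below 0 for 5, beside 59.0% and 41.0% of all measured genes. The split was 3 above and 6 below with median centring and after loess, and 1 above and 8 below with spike-in scaling. In RNA from whole cultures, a changed share of cells in a cycle phase and changed RNA per cell cannot be told apart.

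**Figure D1:**
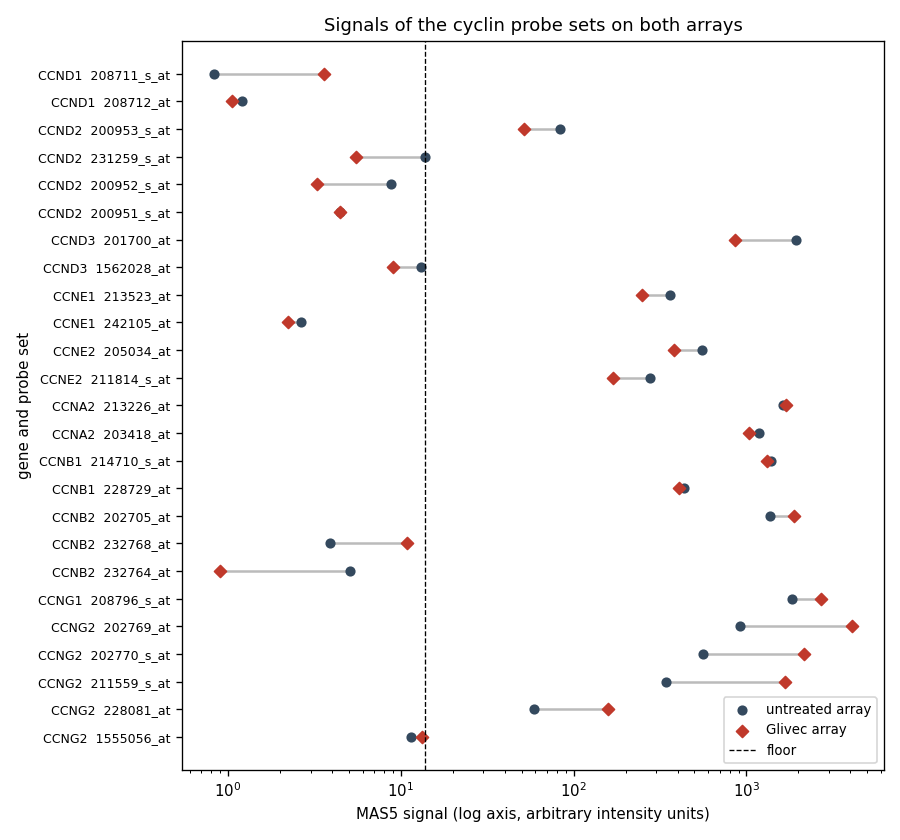
MAS5 signal on a log axis for each of the 25 cyclin probe sets, with circles for the untreated array, diamonds for the Glivec array and the floor as a dashed line. Of these probe sets, 15 lay above the floor on both arrays; the 4 bright CCNG2 probe sets shift to the right with Glivec and those of CCND2, CCND3, CCNE1 and CCNE2 shift to the left.

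Of the 25 probe sets, 15 were above the floor on both arrays, 10 were at or below it on both and 0 crossed it. Below the floor were both CCND1 probe sets, 3 of CCND2, 2 of CCNB2 and 1 each of CCND3, CCNE1 and CCNG2, and no ratio is given for these. All 5 probe sets of D and E cyclins above the floor, from 4 genes, had ratios below 0, beside 43.9% of 21067 such probe sets of all genes. All 5 probe sets of G cyclins above the floor had ratios above 0, beside 56.1%. Of these, 4 read CCNG2 and 1 reads CCNG1, so they stand for 2 genes. Probe sets of the same gene are not independent readings. Of 5 probe sets of A and B cyclins, 2 were above 0 and 3 below. For an error, these arrays hold only the disagreement between probe sets that read the same gene, and differences between cultures are no part of it. Pooled over 5603 genes, the SD of their log2 ratios was 0.325. By signal class, it fell from 0.406 (dimmest of 4) to 0.271 (brightest), and is called the spread SD below.

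Beside the values, the 250 bases before each annotated start were searched on both strands, in RefSeq sequence of GRCh38.p14, which held windows for 7 of the 10 genes. The motifs were the E-box bound by MYC and related factors (CACGTG, in 6.34% of 35116 windows of the same length), the CCAAT box bound by NF-Y (CCAAT, 32.0%), the cell cycle homology region or CHR, bound by MuvB complexes (TTTGAA or TTCGAA, 14.3%), and the CHR form known from cyclin A (CTTGAA, 9.52%). Also searched were E2F sites (TTTCCCGC, TTTGGCGC, TTTCGCGC or TTTGCCGC, 2.79%), 2 FOXO forms (GTAAACA, 2.98%, and AAAACAA, 6.64%) and a STAT form (TTCNNNGAA, 6.57%). In the sequences below, capitals mark every match to any of these, on either strand, and no matches overlapped. A match is a description of the letters and not a site of binding.

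Cyclin D3 had the lowest ratio of the cyclins. The CCND3 signal was 857 with Glivec and 1924 without, 2.24-fold lower with Glivec (log2 ratio -1.17). This ranked 188th from the lowest among 10975 genes above the floor on both arrays, and its size was 4.3 times the spread SD of its signal class. It rests on 1 probe set, since the other CCND3 probe set was below the floor on both arrays (9.05 with Glivec and 13 without). The ratio was -1.16 with quantile normalization, -1.19 after loess, -1.26 with median centring and -1.90 with spike-in scaling, each past 2-fold. Of these, median centring and spike-in scaling could only lower it. Changes of floor, pseudocount or choice of probe set left it at -1.17, since its only bright probe set lies above every floor tried. RefSeq lists 3 CCND3 starts with windows, all within the annotated span of the gene. The window of the middle start, on the minus strand at chr6:41941809-41942058, is shown for this lowest member and holds a single CCAAT match, 136 bases before the start. The window of lowest coordinate also holds a single CCAAT match, at -64 on the opposite strand, and that of highest coordinate holds no match to any motif. Which start is used in these cells was not tested.

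CCND3 upstream window: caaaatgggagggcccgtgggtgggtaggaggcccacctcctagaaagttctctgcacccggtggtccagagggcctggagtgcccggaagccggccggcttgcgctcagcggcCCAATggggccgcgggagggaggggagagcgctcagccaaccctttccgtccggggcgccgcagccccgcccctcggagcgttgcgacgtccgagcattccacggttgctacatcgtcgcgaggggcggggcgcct

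Cyclin D2 was lower too, from dimmer signals. The CCND2 signal was 51.7 with Glivec and 83.5 without, a log2 ratio of -0.69 (1.61-fold lower). This is 1.7 times the spread SD of the dimmest class, and the gene ranked 688th from the lowest. The other 3 CCND2 probe sets gave signals of 5.47, 3.26 and 4.42 with Glivec and 13.7, 8.77 and 4.47 without, at or below the floor. Cyclin D1 was not measured: its probe sets gave 3.60 and 1.06 with Glivec and 0.829 and 1.20 without. Of the 3 D-type genes, CCND3 and CCND2 thus had a signal from which a ratio could be taken, and both were lower on the Glivec array.

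The E-type cyclins, partners of CDK2, were lower by similar amounts. The CCNE1 signal was 249.9 with Glivec and 360.7 without, a log2 ratio of -0.53 (1.44-fold lower). CCNE2 gave 383 and 554 by its brighter probe set, also -0.53 (1.45-fold lower), and 168 and 275 by the other, -0.71. Neither gene reached 2-fold, and the sizes were 1.81 and 1.97 times the spread SD of their classes. They ranked 1089th and 1079th from the lowest, with 9.91% and 9.82% of genes below them. The second CCNE1 probe set was below the floor on both arrays. The CCNE1 window held no match to any of the motifs, which says only that these letters are not in those bases.

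The ratios of all 4 measured D and E genes stayed below 0 in every recalculation that gave a value. CCND2 ranged from -1.43 to -0.69 over 8 of them, CCNE1 from -1.27 to -0.51 and CCNE2 from -1.27 to -0.49 over 10. The lower ends came from spike-in scaling, the only recalculation under which CCND2, CCNE1 and CCNE2 passed 2-fold. Changes of floor, the pseudocount and _at probe sets alone returned the reported ratios wherever they gave a value. Median centring and spike-in scaling could only lower the ratios, so the shared sign was partly fixed in advance.

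**Figure D2:**
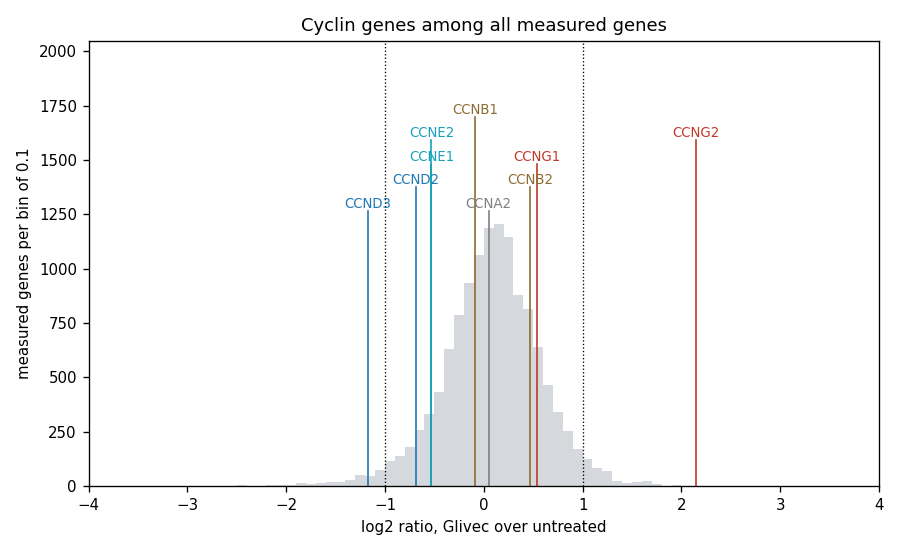
Histogram of log2 ratios, Glivec over untreated, for 12705 measured genes in bins of 0.1, with a labelled line for each measured cyclin gene and dotted lines at 2-fold. CCND3 (-1.17) and CCNG2 (2.15) lie outside the dotted lines, CCND2, CCNE1 and CCNE2 lie in the lower flank, and CCNA2 and CCNB1 lie near the peak.

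Cyclin A2 and cyclin B1, the S phase and mitotic partners of CDK2 and CDK1, had nearly equal signals on the arrays. CCNA2 gave 1691 with Glivec and 1635 without (log2 ratio 0.05) by its brighter probe set and 1033 and 1175 (-0.19) by the other. CCNB1 gave 1309 and 1396 by 1 probe set and 409 and 435 by the other, -0.09 each. All 4 ratios are smaller in size than the spread SD of the brightest class, so no difference could be seen at this precision. CCNA2 had no settled sign, with -0.05 under median centring and -0.07 as the mean of its probe sets, and with spike-in scaling CCNA2 was at -0.69 and CCNB1 at -0.83.

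Cyclin B2 was somewhat higher, at a signal of 1884 with Glivec and 1361 without, a log2 ratio of 0.47 (1.38-fold). This is 1.73 times the spread SD and stands on 1 probe set, with 81.0% of genes at lower ratios. The direction turned with spike-in scaling, to -0.27. The other 2 CCNB2 probe sets were below the floor on both arrays (10.9 with Glivec and 3.88 without, and 0.898 and 5.08). The 2 B cyclins, which share CDK1, thus had ratios of -0.09 and 0.47, a difference that was not tested.

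The upstream windows of these 3 genes are shown to set side by side genes that act in the same phases of the cycle. CCNA2 is at chr4:121823884-121824133 on the minus strand, CCNB1 at chr5:69166900-69167149 and CCNB2 at chr15:59104896-59105145, both on the plus strand.

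CCNA2 upstream window: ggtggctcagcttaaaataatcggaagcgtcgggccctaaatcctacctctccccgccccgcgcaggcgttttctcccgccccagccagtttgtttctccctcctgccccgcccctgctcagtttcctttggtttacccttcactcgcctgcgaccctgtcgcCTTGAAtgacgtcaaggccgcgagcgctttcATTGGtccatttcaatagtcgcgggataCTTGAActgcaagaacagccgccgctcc

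CCNB1 upstream window: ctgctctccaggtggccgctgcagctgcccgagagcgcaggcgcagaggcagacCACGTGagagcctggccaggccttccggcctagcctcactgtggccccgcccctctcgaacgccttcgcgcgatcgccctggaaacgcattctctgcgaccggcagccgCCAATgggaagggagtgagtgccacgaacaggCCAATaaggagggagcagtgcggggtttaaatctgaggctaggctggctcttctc

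CCNB2 upstream window: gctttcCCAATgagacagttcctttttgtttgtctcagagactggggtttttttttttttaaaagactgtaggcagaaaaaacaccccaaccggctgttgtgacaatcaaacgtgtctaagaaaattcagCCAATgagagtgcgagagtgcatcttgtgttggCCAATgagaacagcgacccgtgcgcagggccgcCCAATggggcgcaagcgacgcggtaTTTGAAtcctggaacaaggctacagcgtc

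CCNB2 holds 4 CCAAT matches, of which the last 3 start 33 bases apart, and CCNB1 holds 2 that start 32 bases apart. Both genes have matches beginning 87 bases before the start. CCNB2 has the CHR letters at position -29 and CCNA2 the cyclin A form at -87 and at -28, with a CCAAT match on the opposite strand between them at -56. CCNB1 has neither CHR form in this window and has an E-box match at -196.

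**Figure D3:**
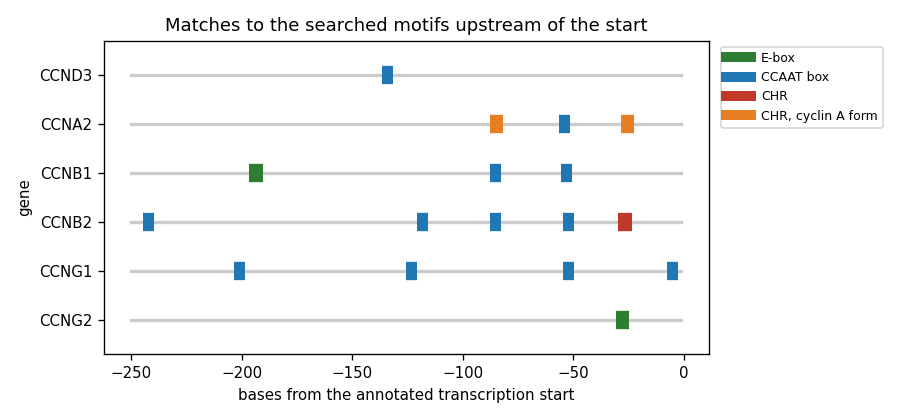
Positions of motif matches in the 250 bases before the annotated start of 6 cyclin genes, with the distance from the start in bases and 1 colour for each motif. For CCND3 the middle start is drawn and for CCNG1 the first; CCNB2 shows 4 CCAAT matches and a CHR match, and CCNG2 shows a single E-box match.

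Cyclin G2 had the highest ratio of the cyclins. Its brightest probe set gave 4076 with Glivec and 921 without, a log2 ratio of 2.15 (4.43-fold higher), and ranked 5th from the highest of 10975 genes. The other probe sets gave 2139 and 562 (1.93), 1676 and 341 (2.30), and 159 and 59.3 (1.42). Under the deposited scaling all 4 therefore lay past 2-fold, with a mean of 1.95 and an SD of 0.38 across probe sets, and the dimmest had the smallest ratio. Spike-in scaling, which lowers ratios by about 0.74, would take that dimmest probe set below 2-fold. A last CCNG2 probe set was below the floor on both arrays, at 13.3 and 11.4. Of 1070 genes with 4 or more probe sets above the floor on both arrays, 2 (0.187%) had all of them at least 2-fold higher: CCNG2 and the CDK inhibitor gene CDKN1C. The cut of 4 is the number that CCNG2 itself has, so this share describes the same values and is no test. The CCNG2 ratio was 2.07 with quantile normalization, 2.05 with median centring, 2.05 after loess and 1.41 with spike-in scaling. Changes of floor, the pseudocount and _at probe sets alone could not change it and left it at 2.15.

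The CCNG2 window lies at chr4:77156957-77157206 on the plus strand and overlaps the annotated span of a noncoding neighbour, LOC101928864. It is shown as the upstream sequence of the cyclin with the highest ratio.

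CCNG2 upstream window: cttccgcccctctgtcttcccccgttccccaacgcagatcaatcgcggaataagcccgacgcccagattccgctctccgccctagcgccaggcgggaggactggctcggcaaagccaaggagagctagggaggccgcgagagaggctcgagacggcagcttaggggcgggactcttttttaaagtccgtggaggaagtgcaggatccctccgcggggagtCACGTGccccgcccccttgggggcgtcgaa

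Its only match is an E-box 30 bases before the start. It holds no match to either FOXO form, to the STAT form, to CCAAT or to a CHR form, which says only that these letters are absent from these bases.

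Cyclin G1 was higher by a smaller amount. The CCNG1 signal was 2687 with Glivec and 1843 without, a log2 ratio of 0.54 (1.46-fold), from the only CCNG1 probe set. The size is 2.01 times the spread SD, and 85.1% of genes had lower ratios. With spike-in scaling it was -0.19, so the direction depended on the scaling, unlike that of CCNG2. The CCNG1 windows of 2 neighbouring starts overlap for most of their length, so they held the same 4 CCAAT matches, and no other motif. The window of the first start overlaps the annotated span of LOC105377700. The G cyclins thus shared a sign under the deposited scaling, with ratios of 0.54 and 2.15 that were not tested against each other.

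**Figure D4:**
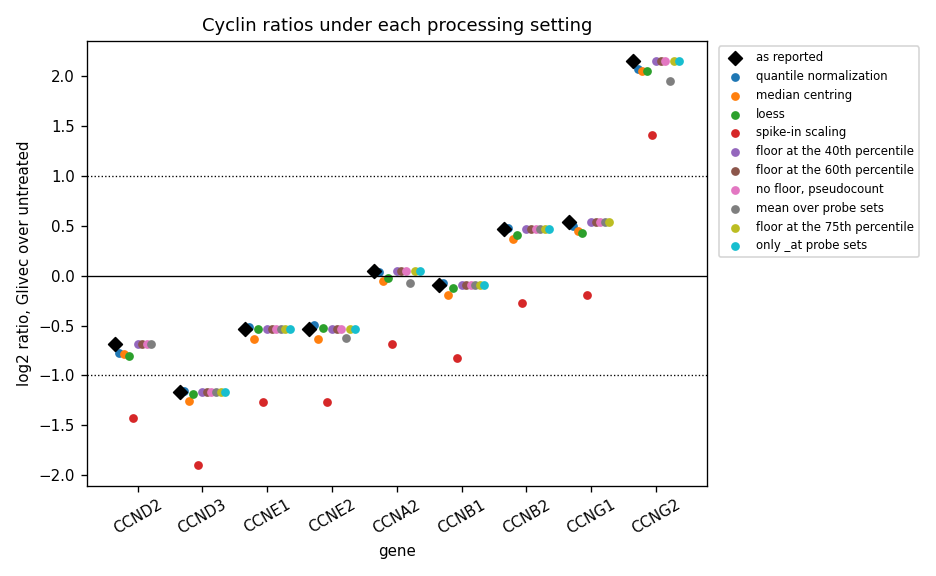
Log2 ratio, Glivec over untreated, of each measured cyclin gene under the reported setting (diamonds) and 10 alternatives (circles), with dotted lines at 2-fold. CCND3 stays below -1 and CCNG2 above 1 under every setting, while CCNB2 and CCNG1 cross 0 with spike-in scaling. CCNA2, near 0 as reported, falls below 0 with spike-in scaling and under several other settings.

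The kinase partners of the D, E, A and B cyclins had ratios close to the bulk of genes. CDK4 gave 1307 with Glivec and 1527 without (log2 ratio -0.22), CDK6 1946 and 1878 (0.05), CDK2 449 and 377 (0.25) and CDK1 1660 and 1512 (0.13). Other CDK1 probe sets ranged from -0.11 to 0.80, and those of CDK6 from -0.15 to 0.20. None of these 4 kinase genes was past 2-fold, including the CDK4 and CDK6 partners of cyclin D3. Among all measured genes 3.13% were at least 2-fold higher and 2.63% lower, so for 4 genes this count says little.

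Among 12 measured cyclins and CDK-binding proteins of the cell cycle outside the 10, 1 was at least 2-fold lower and 0 were higher, with a median of 0.06. With spike-in scaling 11 were measured and their median was -0.65. Over all measured genes 2.63% were lower by as much and 3.13% higher, so such counts in short lists say little. The lower gene was CCNJ, a little-studied cyclin, at 60.4 with Glivec and 140 without (2.31-fold lower), or -1.05 by another probe set. CCNI, an atypical cyclin, was at 4320 and 2712 (0.67), and at 0.53 and 0.79 by other probe sets. The 8 cyclins of transcription and RNA processing, which pair with kinases that act on RNA polymerase II and on splicing, had a median of -0.09 and none past 2-fold. The ratios of largest size there were CCNT2 at -0.29, with other probe sets from -0.63 to 0.59, and CCNH at -0.24. By brightest probe set and under the deposited scaling, each measured D, E and G cyclin had a ratio larger in size than any of these 8. That was not particular to them, since CCNB2 (0.47), CCNI and CCNJ did too, and other CCNT2 probe sets reached similar sizes. With spike-in scaling the median of the 8 was -0.83 and CCNG1 was at -0.19. The difference between these groups was not tested.

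**Figure D5:**
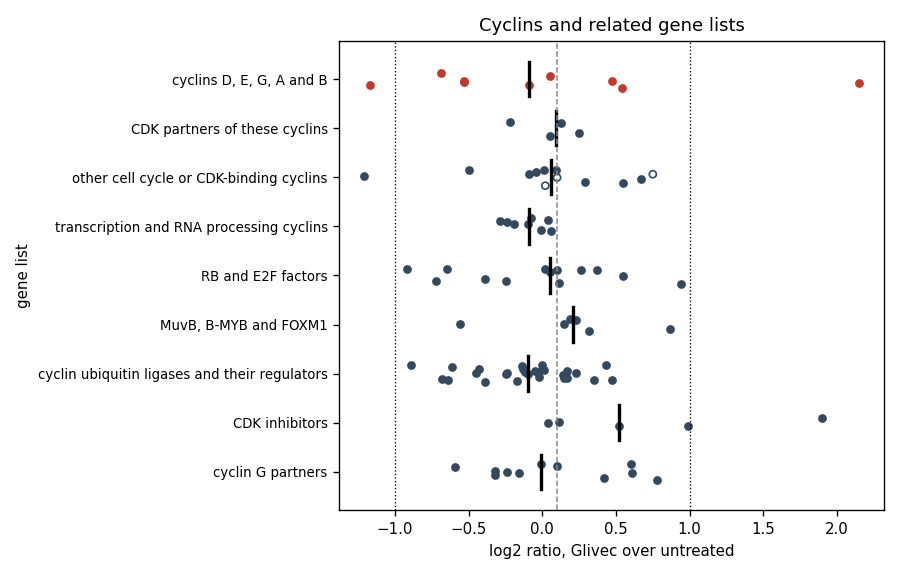
Log2 ratio, Glivec over untreated, of every measured gene in the cyclin set and 8 related gene lists, with open circles for bounds, black bars for list medians, a dashed line at the median of all measured genes (0.10) and dotted lines at 2-fold. Outside the 10 cyclins, CCNJ and CDKN1C lie past 2-fold.

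Downstream of cyclin D, 0 of 13 measured genes of the RB and E2F families were past 2-fold, beside 3.13% higher and 2.63% lower of all measured genes. At those shares a list of this size would hold few or none, so the count says little. Of the 13, 8 were above 0, beside 59.0% of all measured genes, with a median of 0.05. With spike-in scaling 1 was above 0 and the median was -0.69. TFDP2, a dimerisation partner of E2F, was at 362 with Glivec and 189 without (0.94), with other probe sets from 0.30 to 0.84. The repressor E2F6 was at 138 and 261 (-0.92). Of 6 measured genes of the MuvB complex, B-MYB and FOXM1, which act at CHR elements, 0 were past 2-fold and the median was 0.21. That count too is near the shares over all genes. With spike-in scaling the median of this list was -0.55. In that list LIN37 was at 266 and 145 (0.87) and LIN54, the subunit that reads the CHR, at 58.8 and 87.0 (-0.56).

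Of 27 measured ubiquitin ligase components and regulators that control cyclin turnover, 0 were past 2-fold, 9 were above 0 and the median was -0.10. Over all measured genes 3.13% were at least 2-fold higher, 2.63% lower and 59.0% above 0. With spike-in scaling 0 of the 27 were above 0. CUL1, the scaffold of the SCF ligase, was at 191 with Glivec and 353 without (-0.89), and FBXO31, an F-box protein that targets cyclin D1, at 49.0 and 78.5 (-0.68). All 5 measured genes listed as CDK inhibitors, CDKN3 among them by its symbol alone, had ratios above 0, beside 59.0% of all measured genes. Their median was 0.52. With spike-in scaling 2 of the 5 were above 0 and the median was -0.22. CDKN1A at 0.11 and CDKN3 at 0.04 lay at about the median of all genes, and CDKN1C was past 2-fold at 394 and 105 (3.74-fold). CDKN2D, which inhibits CDK4 and CDK6, was at 73.1 and 36.7 (1.99-fold). Of 11 cyclin G partners, the PP2A phosphatase subunits, MDM2 and GAK, 0 were past 2-fold and the median was -0.01. For so few genes that count is near the shares over all genes. With spike-in scaling the median of these partners was -0.75. PPP2R1A, a PP2A scaffold subunit, was at 612 and 356 (0.78), and MDM2 at 519 and 339 (0.61), with other MDM2 probe sets from -0.33 to 0.76.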

How the data were processed

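RNA of 1 culture with Glivec and 1 without was read on 1 Affymetrix array each, per the labels. The deposited values are linear signal intensities per probe set, which the authors made in MAS5, per the submitters' processing notes (version not given in the sources used here). Both arrays had a 2% trimmed mean of 100.01, so they were deposited at a common scale. Detection calls were not used here.

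The platform's annotation gave 41097 probe sets a single symbol, updated through Entrez identifiers. Signals under the floor of 13.7 were set to it, and the difference in log2 signal was taken. Each gene was read from the probe set with the highest mean signal, leaving _x_at probe sets to genes with no other. Windows come from RefSeq on GRCh38.p14. In the related lists, the CDK partners were named, and elsewhere genes past 2-fold or, where fewer than 2 were, the 2 largest ratios in size with both arrays above the floor. The cyclins and lists were chosen with earlier results of these data known. The calculation was run on simulated signals with known folds, which checks the code. The simulated noise was smaller than the spread between probe sets here, and the altered genes lay well above the floor. It therefore does not show how 2-fold counts hold at the noise of these arrays or for dim genes. Alternatives covered scaling (quantile, median centring, loess with span 0.3, spike-ins), the floor (40th, 60th or 75th percentile, or none and a pseudocount of 0.35), the choice of probe set (the mean, or _at alone) and thresholds of 1.5-fold and 3-fold. The number of arrays limits the precision. Python 3.11.15 was used with numpy 2.4.6, pandas 2.3.3, statsmodels 0.14.6 and matplotlib 3.10.9.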

Additional observations from a re-analysis of the deposited data

How the results depend on the processing

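No paired analysis was possible because there is only 1 array on each side, so no replicate could be left out either. A ratio is said to have moved when it shifted by more than the probe set spread SD of its signal class. By that measure only spike-in scaling moved cyclin ratios: to -1.43 for CCND2, -1.90 for CCND3, -1.27 for CCNE1, -1.27 for CCNE2, -0.69 for CCNA2, -0.83 for CCNB1, -0.27 for CCNB2, -0.19 for CCNG1 and 1.41 for CCNG2, with a median of -0.83 and 4 cyclins at least 2-fold lower. This follows from its construction, a near-uniform shift. With no floor and a pseudocount, 2 cyclins were at least 2-fold higher, the second being CCND1, from signals of at most 3.60. At a threshold of 1.5-fold 2 cyclins were lower (CCND2 and CCND3), and at 3-fold 0 were, which leaves CCNG2 alone past it.

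Over all measured genes, the number at least 2-fold higher was 234 after loess, 43 with spike-in scaling, 735 with the floor at the 40th percentile, 234 at the 60th and 91 at the 75th, and 2564 with no floor and a pseudocount. The number at least 2-fold lower was 2484 under the spike-in factor, 176 when the floor stood at the 75th percentile and 1974 with no floor and a pseudocount. At 1.5-fold, 1710 genes were higher and 1058 lower, and at 3-fold 56 and 86. CCND2 had no value with the 75th percentile floor or with only _at probe sets, and CCNG1 none with the latter. Signals below the floor limit CCND1 and 10 of the 25 probe sets. For shifts that are not fixed by construction, the cause was not tested.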
